A study of Mus musculus with 6 samples.

Results

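Of the 32285 genes measured in immune cells sorted from mouse colon tumours, 9 are described here. They are Lmna, Igf1r, Abcb1b, Rundc3b, Galnt18, Tmprss6, Glis1, Filip1 and Sema6d. They were chosen by their measured values, because their UMIs (unique molecular identifiers, counted transcripts) in CD8 T cells differed widely between the SOX17KO and Control libraries that carry no time label, so that contrast is described below without a test. Tumours of 5 mice were pooled per condition, viable CD45+ EpCAM- cells were sorted from the colon tumours, and 3′ single-cell libraries were made with the 10x Genomics v3 chemistry. The 6 libraries comprise 1 SOX17KO and 1 Control library in each of 3 collections, which are an untimed pair, a pair labelled 1 week and a pair labelled 2 weeks. The labels give the genotype only as SOX17KO or Control. Which cells carry the SOX17 deletion, the driver alleles that all tumours share, the strain and the age are not given in the sources used here.

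Whether the sorted immune cells carry the deletion is not in the labels, so Sox17 counts do not check the genotype. Sox17 had 4 UMIs in SOX17KO and 7 in Control without a time label. It had 20 SOX17KO and 11 Control UMIs at 1 week, and 3 SOX17KO and 10 Control UMIs at 2 weeks. After filters the untimed libraries held 6056 SOX17KO and 6504 Control cells, those at 1 week 6882 SOX17KO and 5251 Control cells, and those at 2 weeks 2940 SOX17KO and 4600 Control cells. Total depth was 18281322 to 52150180 UMIs per SOX17KO library and 27816981 to 45533699 UMIs per Control library. Any pair of libraries shared 4 to 13 cell barcodes.

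CD8 T cells were gated as cells with at least 2 UMIs of Cd3d, Cd3e and Cd3g summed, at least 2 UMIs of Cd8a and Cd8b1 summed, and no Cd4. The gate held 4987 cells in all. These were 2564 SOX17KO and 1123 Control cells without a time label, 50 SOX17KO and 33 Control cells at 1 week, and 271 SOX17KO and 946 Control cells at 2 weeks. Among genes that the gate did not use, Trac was detected in 74.3% to 88.6% of the gated cells of each library. Nkg7 was detected in 90.1% of SOX17KO and 95.3% of Control cells in the untimed libraries, and in 94.1% of SOX17KO and 95.9% of Control cells at 2 weeks. The 1-week gate stands apart from the others. There the macrophage genes Lyz2 and Csf1r were detected in 76.0% and 66.0% of SOX17KO cells and in 87.9% and 81.8% of Control cells. The values at 1 week therefore come from few cells that also hold macrophage transcripts.

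The members have different known roles. Lmna encodes A-type lamins, filaments under the nuclear envelope that stiffen the nucleus. Igf1r encodes the receptor tyrosine kinase for insulin-like growth factors. Abcb1b encodes a P-glycoprotein, an efflux pump of the plasma membrane, and mice carry a close relative, Abcb1a, where humans have a single gene. Rundc3b encodes a protein with a RUN domain. Galnt18 belongs to the family of N-acetylgalactosaminyltransferases that start mucin-type O-glycosylation. Tmprss6 encodes matriptase-2, a membrane serine protease best known from liver, where it lowers hepcidin. Glis1 is a zinc finger transcription factor related to GLI proteins, Filip1 encodes a protein that binds filamin A, and Sema6d is a transmembrane semaphorin that signals through plexins. CD8 T cells in tumours pass between activated, cycling and chronically stimulated states, and Tox is the transcription factor best known for the last of these.

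All coordinates are of the mm10 build. Rundc3b (chr5:8490334-8622952, minus strand) and Abcb1b (chr5:8798147-8866315, plus strand) are neighbours, with Abcb1a between them. The gap between Rundc3b and Abcb1a is 37.1 kb and the gap between Abcb1a and Abcb1b is 49.6 kb, and Abcb4, a phospholipid transporter gene, starts 27.4 kb past Abcb1b. Sema6d (chr2:124089969-124667770) spans 578 kb, and Filip1 (chr9:79815051-80012851) spans 198 kb. The others are Lmna (chr3:88480147-88509956), Igf1r (chr7:67952827-68233668), Galnt18 (chr7:111471661-111779977), Tmprss6 (chr15:78439667-78468634) and Glis1 (chr4:107434591-107635061). The loci set limits on the counting. Abcb1b and Abcb1a are paralogs that share 427 of the 4217 windows of 90 bases in the longest Abcb1b transcript. In its last 1000 bases, the end that 3′ libraries count, 106 of 911 windows were shared. In the last 1000 bases of the longest Abcb1a transcript 0 of 911 were. Reads from shared windows may be split or lost. The antisense gene Gm5106 overlaps 377 bases at the start of Abcb1b, and in CD8 T cells it had 133 SOX17KO and 15 Control UMIs in the untimed pair.

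Promoter sequence upstream of 4 members is printed because Rundc3b and Abcb1b are neighbours whose levels moved together and because Filip1 and Sema6d were the pair of genes lower in SOX17KO CD8 T cells with the largest number of cells that held both. They are the most widely detected of those 5 genes, and relative to detection other pairs came together more often, as given below. Each window is the 250 bases before an annotated start, taken from RefSeq on GRCm38.p6 and written along the gene's strand, and capitals mark matches to the GC box GGGCGG on either strand. The windows are chr5:8797897-8798146 (plus) for Abcb1b, chr5:8622953-8623202 (minus) for Rundc3b, chr9:80012852-80013101 (minus) for Filip1 and chr2:124089719-124089968 (plus) for Sema6d.
Abcb1b: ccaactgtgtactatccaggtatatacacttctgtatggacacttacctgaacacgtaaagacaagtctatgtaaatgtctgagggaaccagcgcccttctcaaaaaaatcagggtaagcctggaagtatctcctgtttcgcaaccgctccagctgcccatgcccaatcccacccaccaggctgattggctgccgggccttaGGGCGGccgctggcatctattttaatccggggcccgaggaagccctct
Rundc3b: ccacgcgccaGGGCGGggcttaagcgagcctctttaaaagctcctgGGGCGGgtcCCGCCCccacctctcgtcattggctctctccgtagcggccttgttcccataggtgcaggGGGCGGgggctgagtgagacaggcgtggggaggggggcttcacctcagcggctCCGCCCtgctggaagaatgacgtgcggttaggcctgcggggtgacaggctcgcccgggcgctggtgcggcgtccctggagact
Filip1: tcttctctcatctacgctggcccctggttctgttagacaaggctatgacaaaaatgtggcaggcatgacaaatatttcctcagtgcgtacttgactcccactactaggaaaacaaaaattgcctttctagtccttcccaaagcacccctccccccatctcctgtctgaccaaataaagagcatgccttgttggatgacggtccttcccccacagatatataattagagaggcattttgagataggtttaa
Sema6d: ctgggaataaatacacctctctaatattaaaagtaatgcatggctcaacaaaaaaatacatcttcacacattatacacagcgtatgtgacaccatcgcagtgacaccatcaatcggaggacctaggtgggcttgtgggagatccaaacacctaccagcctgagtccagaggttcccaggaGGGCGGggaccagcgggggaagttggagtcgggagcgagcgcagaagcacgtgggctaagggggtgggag
The Rundc3b window held 5 GC boxes, 21 CpG and 69.2% G and C. The Abcb1b window held 1 GC box, 9 CpG and 52.8% G and C, and the Sema6d window 1, 9 and 52.4%. The Filip1 window held no GC box, 3 CpG and 45.2% G and C. Filip1 and Sema6d have further entries that are not printed, and these differ from the printed windows. A further Filip1 entry held 1 GC box and 6 CpG, and the further Sema6d entry held no GC box and 6 CpG. Over all 32851 RefSeq windows of this length the medians were 6 CpG and 52.4% G and C, and 32.7% held a GC box. Other motifs were searched on both strands in every entry of the 7 members that had a promoter entry. The AP-1 letters TGANTCA, held by 6.75% of all windows, were in none of these entries. The TATA letters TATAAA, held by 12.4%, were in none either, nor was the CRE motif TGACGTCA, held by 1.55%. The RUNX letters TGTGGT, held by 14.0%, were in 1 further entry each of Lmna, Filip1 and Sema6d. A match or its absence describes these letters only.

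In the untimed pair, CD8 T cells of the SOX17KO library held far more Lmna, Igf1r, Abcb1b and Rundc3b transcripts, and far fewer Galnt18, Tmprss6, Glis1, Filip1 and Sema6d transcripts, than those of the Control library. That is, 4 members were at least 2-fold higher and 5 at least 2-fold lower in SOX17KO cells, which is how they were chosen. Among the 13324 genes with at least 20 UMIs over both libraries, 10.0% were at least 2-fold higher and 9.77% at least 2-fold lower in SOX17KO cells. The median log2 ratio of those genes was -0.12. Ratios here are of CPM, the UMIs of a gene per 1000000 UMIs of the class, summed over the cells of a library, each with its 95% interval for counting error. That interval covers neither mice nor libraries, since each genotype had 1 library per collection.

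Lmna showed the widest gap of the genes that were higher. It had 251 CPM in SOX17KO and 11.1 CPM in Control CD8 T cells, from 3317 and 105 UMIs, a log2 ratio of 4.51 (95% counting interval 4.23 to 4.80). Lmna ranked 82nd from the highest ratio among the 13324 genes. Igf1r had 228 CPM in SOX17KO and 30.6 CPM in Control cells, a log2 ratio of 2.90 (2.72 to 3.07). The neighbours were both higher as well. Abcb1b had 565 CPM in SOX17KO and 109 CPM in Control cells, a log2 ratio of 2.37 (2.27 to 2.46). Rundc3b had 407 CPM in SOX17KO and 112 CPM in Control cells, a log2 ratio of 1.86 (1.77 to 1.96). Abcb1a, which lies between them, had 316 CPM in SOX17KO and 184 CPM in Control cells (log2 ratio 0.78). Abcb4, on the far side of Abcb1b, was low but wider apart, with 181 SOX17KO and 18 Control UMIs and a log2 ratio of 2.86. Thus all 4 genes in a row on chromosome 5 had higher CPM in SOX17KO cells, and the gene with the smallest ratio stood between the members.

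Galnt18 was almost absent from the SOX17KO cells. It had 4 UMIs in 2564 SOX17KO cells and 1589 UMIs in 1123 Control cells, which is 0.303 and 167 CPM and a log2 ratio of -9.11 (-10.99 to -7.75). Galnt18 ranked 2nd from the lowest ratio. Its Control UMIs were concentrated, with 8.54 UMIs per positive cell and up to 54 in 1 cell. Tmprss6 had 1 UMI in SOX17KO and 248 UMIs in Control cells, a log2 ratio of -8.43 (-13.74 to -5.94). Glis1 had 16 UMIs in SOX17KO and 664 UMIs in Control cells, a log2 ratio of -5.85 (-6.67 to -5.14). These 3 genes were nearly absent from the SOX17KO cells, whereas the remaining pair was present in both libraries. Filip1 had 25.3 CPM in SOX17KO and 222 CPM in Control cells, a log2 ratio of -3.13 (-3.30 to -2.96). Sema6d had 35.7 CPM in SOX17KO and 216 CPM in Control cells, a log2 ratio of -2.60 (-2.75 to -2.45).

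**Figure D1:**
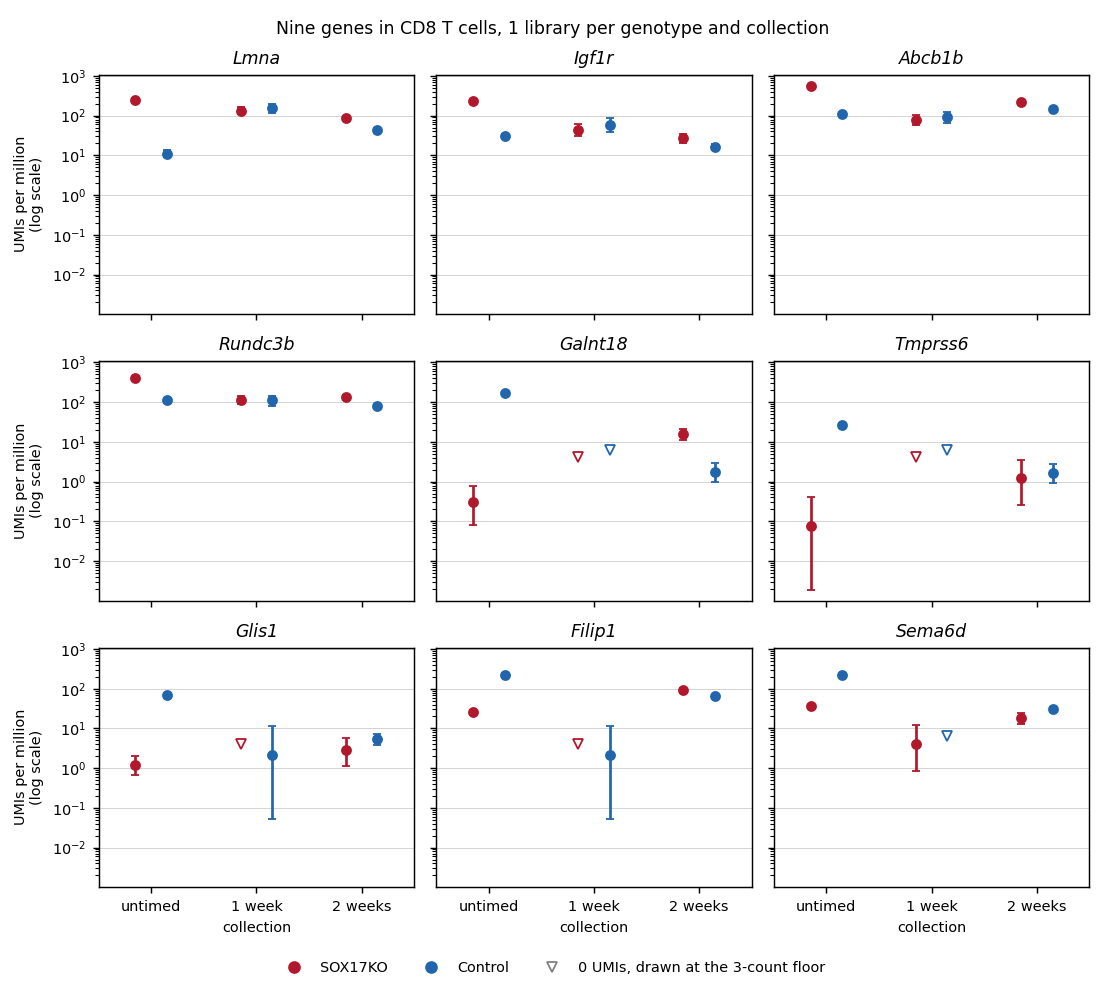
Level of each of the 9 genes in CD8 T cells (CPM, log axis) in the SOX17KO and Control libraries of the untimed, 1-week and 2-week collections, with 95% intervals for counting error and triangles at the 3-count floor where a gene had 0 UMIs. The untimed libraries lie far apart for every gene, while the 1-week and 2-week libraries lie closer together.

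The contrast was also seen in shares of cells at equal depth. The median CD8 T cell held 3500.5 UMIs in the untimed SOX17KO library and 6251 in the Control library, so each cell was also thinned to 1000 UMIs. Lmna was detected in 39.3% of SOX17KO and 6.23% of Control cells, and after thinning in 15.8% and 0.875%. Galnt18 was detected in 0.156% of SOX17KO and 16.6% of Control cells, and after thinning in 0.017% and 6.82%. B cells, a class of another lineage, are set beside the CD8 T cells. Whether their Lmna UMIs are free RNA or their own transcripts was not tested. Of the B cells, with median depths of 2482.5 UMIs in SOX17KO and 3011.5 in Control, 7.54% and 8.96% had an Lmna UMI, and none of the 252 SOX17KO or 212 Control B cells had a Galnt18 UMI. A count of 0 in these B cells allows a share of up to 1.19% in SOX17KO and 1.42% in Control. The Lmna share of Control CD8 T cells was below that of B cells, so it was not above the level of that class. The SOX17KO shares of Galnt18, Tmprss6 and Glis1 were within what the B cell counts allow, and the highest was 0.546%, for Glis1. Igf1r, Abcb1b and Rundc3b were detected in 46.6%, 65.8% and 65.9% of SOX17KO and in 12.2%, 37.3% and 40.7% of Control CD8 T cells, against no more than 4.76% of B cells in either library. The intervals and limits cover counting error only.

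Single cells combined the members in different ways. At least 1 UMI of each of Lmna, Igf1r, Abcb1b and Rundc3b was found in 295 SOX17KO cells (11.5%) and in 5 Control cells (0.445%) of the untimed pair. At least 2 of the other 5 genes were found in 36 SOX17KO cells (1.40%) and in 404 Control cells (36.0%). Control cells were mixed in this respect, since 41.8% of them held none of these 5 genes. At 2 weeks the shares were close together. All 4 genes were found in 0.738% of SOX17KO and 0.317% of Control cells, and at least 2 of the other 5 in 4.43% of SOX17KO and 5.39% of Control cells.

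Genes of other lineages also differed between the untimed CD8 gates, and their part in the ratios was not tested. Summed over 15 such genes, they made up 2979 CPM in SOX17KO and 736 CPM in Control CD8 T cells, although the share of cells with any such UMI was 23.6% and 22.8%. Jchain, a plasma cell gene, was the largest single part of the sum in both libraries, with 2129 CPM in SOX17KO and 341 CPM in Control cells. Col3a1, a fibroblast gene, had 84.0 CPM in SOX17KO and 7.69 CPM in Control cells, and the neutrophil gene S100a9 went the other way with 0.152 and 23.8 CPM. None of the 15 genes was at 0 in either library. Without the cells that held 2 or more UMIs of other lineages all 9 ratios kept their sign, with log2 ratios of 4.71 for Lmna and -9.46 for Galnt18. Those of Glis1 (-6.94), Igf1r (3.21), Abcb1b (2.55) and Rundc3b (2.04) lay outside their counting intervals. The SOX17KO UMIs of Glis1 fell to 5.

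The CD8 states of the untimed libraries differed in their shares. Cells were called cycling by Mki67 and Top2a, and the other cells were divided by whether they had a Tox UMI. Cycling, Tox-positive and Tox-negative cells made up 7.02%, 21.7% and 71.3% of SOX17KO and 18.7%, 62.7% and 18.6% of Control CD8 T cells. Depth differs between the libraries and affects whether a Tox UMI is seen, so these shares also follow depth. Tox itself had 120 CPM in SOX17KO and 968 CPM in Control cells. Of 13 immediate early genes, which stimulation and tissue digestion are both known to induce, 10 were at least 2-fold higher in SOX17KO cells and 0 lower, with Fosb at 508 CPM in SOX17KO and 71.9 CPM in Control cells. Over all genes the shares were 10.0% higher and 9.77% lower. The part of the immediate early difference in the member ratios was not tested.

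Within each state the 4 genes higher in SOX17KO remained higher. Lmna had 218, 274 and 332 CPM in Tox-negative, Tox-positive and cycling SOX17KO cells, against 8.12, 12.9 and 9.12 CPM in the same states of Control cells. Every SOX17KO state was above every Control state, and the same held for Igf1r, Abcb1b and Rundc3b. Abcb1b and Rundc3b also varied between states in the same order in both libraries. Abcb1b had 623, 526 and 422 CPM in Tox-negative, Tox-positive and cycling SOX17KO cells, and 180, 110 and 85.5 CPM in Control cells. Rundc3b had 454, 419 and 227 CPM in SOX17KO cells, and 170, 114 and 89.7 CPM in Control cells. Both were therefore highest in Tox-negative cells and lowest in cycling cells.

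The 5 genes lower in SOX17KO also varied between states among Control cells. Galnt18 had 4.51 CPM in Tox-negative, 151 CPM in Tox-positive and 247 CPM in cycling Control cells, and no more than 0.593 CPM in any SOX17KO state. Tmprss6 had 1.80, 27.3 and 32.5 CPM and Glis1 9.92, 82.8 and 70.3 CPM in the same Control states. Filip1 had 91.1, 239 and 239 CPM, and Sema6d 116, 222 and 240 CPM. All 5 were thus lowest in the Tox-negative Control cells of the untimed pair. In SOX17KO cells Filip1 stayed between 19.0 and 29.1 CPM and Sema6d between 33.2 and 40.9 CPM, and neither gene was lowest in Tox-negative cells there. Among Tox-negative cells alone the log2 ratio of Filip1 was -1.65 and that of Sema6d -1.77, smaller than over all CD8 T cells, and Galnt18 had too few UMIs there for a ratio. At 2 weeks Filip1 and Sema6d had fewer UMIs in Tox-positive than in Tox-negative Control cells. Filip1 had 68 UMIs in 247 Tox-positive and 141 UMIs in 293 Tox-negative cells, and Sema6d had 17 and 51 UMIs.

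**Figure D2:**
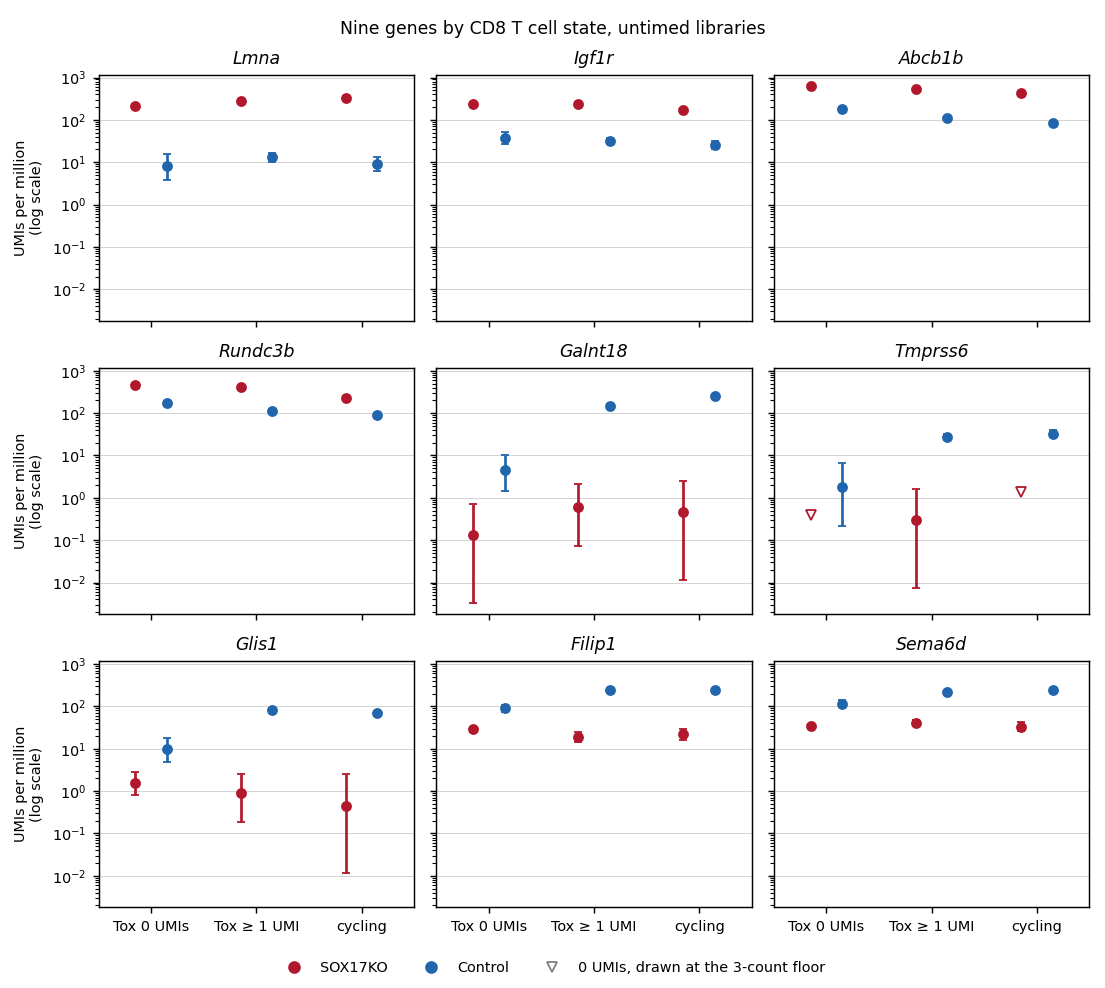
Level of the 9 genes (CPM, log axis) in Tox-negative, Tox-positive and cycling CD8 T cells of the untimed SOX17KO and Control libraries, with 95% counting intervals. Triangles mark a level of 0 UMIs, drawn at the 3-count floor. Lmna lies between 218 and 332 CPM in the SOX17KO states and between 8.12 and 12.9 CPM in the Control states.

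Detection in the same cell was compared with the number that cells of like depth would give, by dividing the cells into 10 depth bins. In untimed Control cells, all 10 pairs among the 5 genes lower in SOX17KO were found together more often than the depth-matched number, at 1.30 to 2.12 times. Galnt18 and Glis1 were found together in 90 cells, against a depth-matched number of 42.4. Galnt18 and Tmprss6 were found together in 80 cells, against 37.9. Filip1 and Sema6d, the promoters of which are printed above, were found together in 312 cells, against 232 (1.35 times). In Control cells at 2 weeks only 2 of the 10 pairs had a depth-matched number of at least 5. Filip1 and Sema6d were found together in 38 cells there, against 26.0, and Glis1 and Filip1 in 6, against 6.54. Of the 186 Control cells with Galnt18, 181 also had Tox, 1.12 times the depth-matched number. Pairs between the sets lay at 0.851 to 1.10 times in the same cells. Among the 4 genes higher in SOX17KO, the neighbours had the highest ratio in untimed Control cells. Abcb1b and Rundc3b were found together in 230 cells, against 183 (1.26 times), and in 190 against 154 cells at 2 weeks (1.24 times), where Lmna and Igf1r had a higher ratio (23 cells, against 14.7). In untimed SOX17KO cells the 6 pairs of these 4 genes lay at 0.923 to 1.08 times. These are descriptions of cells that share a library, with no test. The bins matched depth and not CD8 state, and the part of state in these ratios was not tested.

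**Figure D3:**
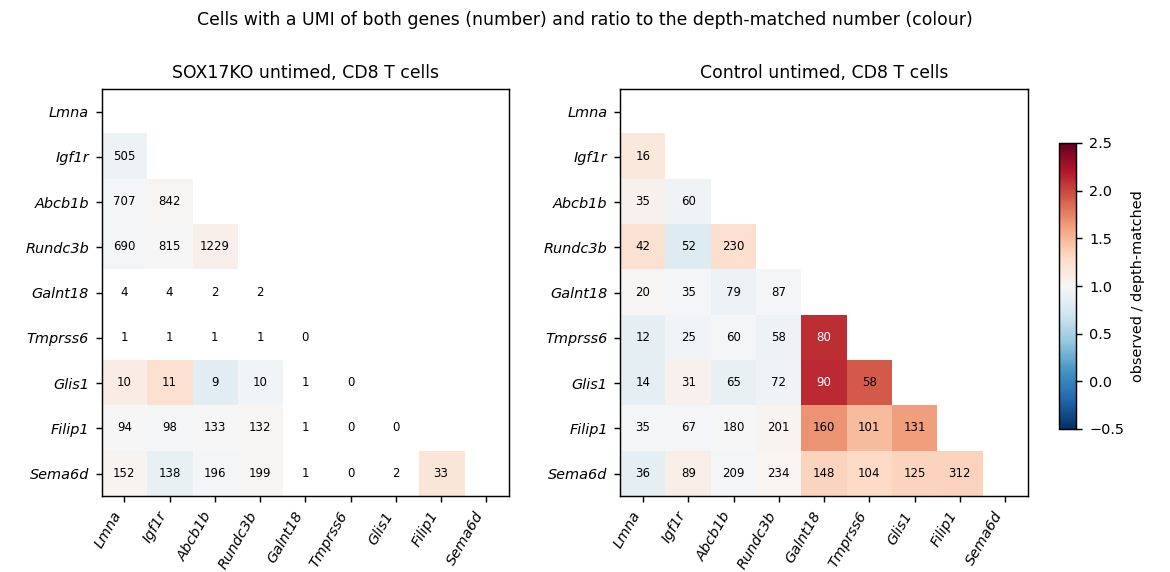
Number of CD8 T cells with both genes of a pair (printed) and its ratio to the depth-matched number (colour), for pairs of the 9 genes in the untimed SOX17KO and Control libraries. The colour is left out where the depth-matched number is below 5, and the highest ratios, up to 2.12, are among the 5 genes lower in SOX17KO in Control cells.

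At 1 week the gap in the 4 genes was not seen at this depth. Lmna had 133 CPM in SOX17KO and 153 CPM in Control cells, from 97 and 72 UMIs, a log2 ratio of -0.20 (-0.65 to 0.26). Igf1r, Abcb1b and Rundc3b had log2 ratios of -0.44, -0.22 and 0.03. The remaining 5 genes had 0 to 3 UMIs in each 1-week library. Galnt18 and Tmprss6 had 0 UMIs in both, and 3 counts, the limit that a count of 0 allows, would be 4.12 CPM in SOX17KO and 6.38 CPM in Control.

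At 2 weeks the ratios were much smaller, and 2 of them had the opposite sign. Of the 8 members with at least 20 UMIs, 2 were at least 2-fold higher in SOX17KO CD8 T cells, Lmna and Galnt18, and 0 at least 2-fold lower. Among the 11635 genes with at least 20 UMIs, 4.53% were at least 2-fold higher and 4.56% at least 2-fold lower. Lmna had 87.4 CPM in SOX17KO and 43.3 CPM in Control cells, a log2 ratio of 1.01 (0.76 to 1.26). A single cycling SOX17KO cell supplied 77 of the 215 SOX17KO UMIs of Lmna, and without the top cell of each library the log2 ratio was 0.49. Igf1r, Abcb1b and Rundc3b had log2 ratios of 0.68 (0.23 to 1.11), 0.53 (0.38 to 0.67) and 0.74 (0.55 to 0.93). Over all CD8 T cells the 4 genes were thus in the same direction as in the untimed pair, at a smaller size. Igf1r was not so in every state. In cycling cells it had 5 SOX17KO and 71 Control UMIs (log2 ratio -1.80), and with cycling cells left out 61 and 71 UMIs (log2 ratio 1.22).

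The genes that were lower in the untimed SOX17KO library had no shared direction at 2 weeks. All 38 Galnt18 UMIs of the SOX17KO library lay in 1 Tox-positive cell of 38754 UMIs, against 15 UMIs in 5 Control cells. The log2 ratio of 3.13 therefore describes a single cell. Without the top cell of each library Galnt18 had 0 SOX17KO and 11 Control UMIs. The log2 value of -0.07 was then set against the floor of 3 counts and is not a measured ratio. Filip1 had 91.0 CPM in SOX17KO and 65.6 CPM in Control cells, a log2 ratio of 0.47 (0.24 to 0.70). Sema6d had 17.9 CPM in SOX17KO and 30.1 CPM in Control cells, a log2 ratio of -0.75 (-1.25 to -0.28). Glis1 had 7 SOX17KO and 45 Control UMIs, with a log2 interval that spans 0 (-2.29 to 0.26), and Tmprss6 had 3 and 14 UMIs. Over all CD8 T cells Filip1 was therefore higher and Sema6d lower in SOX17KO, and both directions rested on cycling cells. In cycling cells alone the log2 ratio was 0.79 for Filip1 and -2.35 for Sema6d. With cycling cells left out it was -0.0062 for Filip1 and 0.48 for Sema6d. In Tox-positive cells Sema6d was at 1.31, from only 15 SOX17KO and 17 Control UMIs. Of the 44 Sema6d UMIs in all SOX17KO CD8 T cells, 13 lay in 1 cell.

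The 2-week Control cells also differed from the untimed Control cells in these genes. Galnt18 had 1.77 CPM in Control cells at 2 weeks and 167 CPM in untimed Control cells, and Glis1 had 5.31 and 69.9 CPM. State shares do not separate the 2-week libraries, in which Tox-positive, Tox-negative and cycling cells made up 26.6%, 34.3% and 39.1% of SOX17KO and 26.1%, 31.0% and 42.9% of Control CD8 T cells. Collections are single libraries per genotype, so a difference between collections cannot be told apart from a difference between library preparations.

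Outside CD8 T cells, Lmna was higher in the SOX17KO library in most other classes of the untimed pair. Each class was gated by its own markers. Lmna had 395 CPM in SOX17KO and 37.5 CPM in Control regulatory T cells of the untimed pair, from 24 and 450 cells. It had 282 and 44.2 CPM in conventional CD4 T cells, 438 and 104 CPM in gamma-delta T cells, and 681 and 50.6 CPM in monocytes and macrophages. The counting interval lay above 0 in 6 of the 7 other classes with at least 20 UMIs. In B cells Lmna had 45.1 CPM in SOX17KO and 27.8 CPM in Control, with an interval of the log2 ratio from -0.17 to 1.59. Higher Lmna in the untimed SOX17KO library was thus not restricted to CD8 T cells.

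The other 3 of the 4 genes were less uniform outside CD8 T cells. Abcb1b had 200 CPM in SOX17KO and 76.7 CPM in Control conventional CD4 T cells, and 302 and 195 CPM in NK cells of the untimed pair. Rundc3b had 250 and 139 CPM in conventional CD4 T cells and 183 and 72.1 CPM in regulatory T cells. Igf1r was highest in neutrophils, with 635 to 1370 CPM in 5 libraries with enough neutrophils, and in gamma-delta T cells of the untimed pair, with 1281 CPM in SOX17KO and 901 CPM in Control. In monocytes and macrophages of that pair it went the other way, with 108 CPM in SOX17KO and 165 CPM in Control. Abcb1b had its highest class median in NK cells, 211 CPM over 6 libraries, ahead of CD8 T cells at 130 CPM, but the ranges over libraries overlapped (142 to 302 CPM and 78.3 to 565 CPM).

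Of the 5 genes lower in untimed SOX17KO CD8 T cells, Galnt18 and Glis1 were low in every other immune class. Galnt18 did not pass 11.9 CPM in any class other than CD8 T cells and fibroblasts, and fibroblasts held 19.0 to 49.3 CPM. Glis1 had 16.4 to 52.4 CPM in fibroblasts. Tmprss6 had its highest levels outside CD8 T cells in NK cells, with 5.31 CPM in SOX17KO and 19.4 CPM in Control NK cells of the untimed pair. At 1 week these were 18.1 and 13.1 CPM, and at 2 weeks 20.4 CPM in SOX17KO and 29.0 CPM in Control. The untimed NK gates held 53 SOX17KO and 254 Control cells, with 188485 UMIs in SOX17KO. The counting interval of the untimed Tmprss6 ratio (log2 -1.87) spanned 0. Sema6d in NK cells had 133 CPM in SOX17KO and 58.3 CPM in Control in the untimed pair. At 1 week these were 14.4 and 17.0 CPM, and at 2 weeks 65.1 CPM in SOX17KO and 20.2 CPM in Control. Sema6d was therefore higher in untimed SOX17KO NK cells and lower in SOX17KO CD8 T cells of the same pair.

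**Figure D4:**
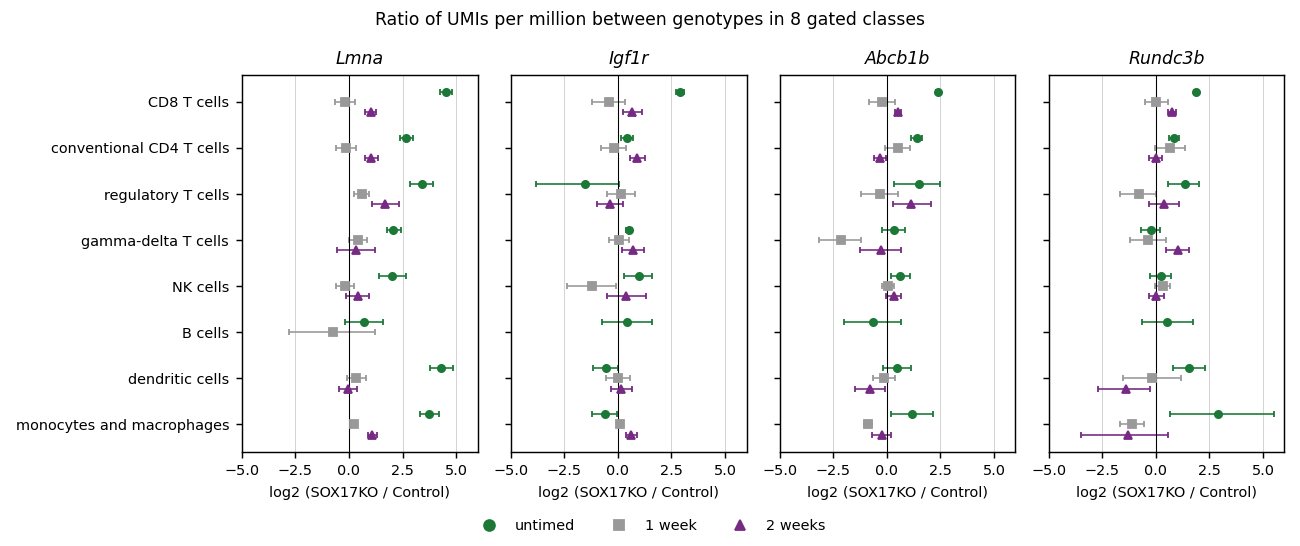
Log2 ratio of SOX17KO over Control CPM (x axis) for Lmna, Igf1r, Abcb1b and Rundc3b in CD8 T cells and other gated classes (rows), by collection (symbols), with 95% counting intervals. Lmna lies above 0 in the 3 collections in regulatory T cells, gamma-delta T cells and monocytes and macrophages.

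The test over all 3 collections was possible in 6 classes that held at least 20 cells in every library, and it used no CD8 T cell. It did use the untimed libraries, whose CD8 T cells served to choose the members, so it is not independent of that choice. Counts summed per library and class were fitted with edgeR's quasi-likelihood test, with collection as a term. Of 33 pairs of member and class that passed the filter on low counts, 0 had an adjusted p under 0.05, and 7 had an unadjusted p under 0.05. Over all genes the unadjusted number was 502 of 7945 in regulatory T cells and 669 of 10265 in conventional CD4 T cells. It was 473 of 6715 in gamma-delta T cells and 359 of 8340 in NK cells. In dendritic cells it was 652 of 9671, and in monocytes and macrophages 210 of 10303. DESeq2 called 1 pair, Lmna in regulatory T cells, with an adjusted p of 0.0475, and limma-voom called 0. In that class DESeq2 called 20 of 7945 genes. The share of all genes called by edgeR was 0.453% in regulatory T cells, 0.0195% in conventional CD4 T cells and 0.164% in gamma-delta T cells, and 0% in NK cells, dendritic cells, and monocytes and macrophages. Galnt18 and Glis1 passed the filter in no class and Tmprss6 in NK cells only.

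Lmna had a positive estimate in 6 of 6 classes, and 4 of the 7 unadjusted p under 0.05 were its own. In regulatory T cells the log2 change of Lmna was 1.74 (SE 0.42, edgeR adjusted p = 0.176), and SOX17KO was higher in 3 of 3 collections. In gamma-delta T cells it was 1.08 (SE 0.31, edgeR adjusted p = 0.244) and in monocytes and macrophages 1.43 (SE 0.57, edgeR adjusted p = 1.00), each higher in 3 of 3 collections. In conventional CD4 T cells it was 1.28 (SE 0.46, edgeR adjusted p = 0.665), with SOX17KO higher in 2 of 3 collections, since it had 109 CPM in SOX17KO and 119 CPM in Control at 1 week. None of these passed the threshold. Without the 2-week pair edgeR called the Lmna change in gamma-delta T cells (adjusted p = 0.00227). Without the untimed pair it called that in monocytes and macrophages (adjusted p = 0.0446). Those fits called more genes altogether. The number was 88 of 6509 genes in gamma-delta T cells, against 11 of 6715 with all 3 collections. In monocytes and macrophages it was 88 of 11767, against 0 of 10303. Sema6d had an estimate of -2.47 in gamma-delta T cells (SE 0.88, edgeR adjusted p = 0.451) and of 1.03 in NK cells (SE 0.34, edgeR adjusted p = 0.984).

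Across 58 points, each 1 gated class in 1 library with at least 20 cells, the genes with the most similar levels differed from member to member. Emp1, Klf4 and Ahnak were most like Lmna, with Spearman correlations of 0.85, 0.80 and 0.78. Btbd11, Fasl and Klrc1 were most like Abcb1b (0.90, 0.84 and 0.84), and Skap1, Ptpn22 and Gm15472 most like Rundc3b (0.94, 0.93 and 0.91). For Igf1r, Zswim4 came closest at 0.77. For the low genes the values were smaller, with Dsel closest to Galnt18 (0.72), Ctla2a to Tmprss6 (0.64), Fam20a to Glis1 (0.68), Myo10 to Filip1 (0.75) and Asap2 to Sema6d (0.74). The points share libraries and differ in depth, so these values describe likeness only.

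Relatives of the members differed with them in some lists and not in others in untimed CD8 T cells, going by genes with at least 20 UMIs other than the members. Of 14 genes of the nuclear lamina and the complex that ties it to the cytoskeleton, 1 was at least 2-fold higher in SOX17KO cells and 13 were within 2-fold, with a median log2 ratio of -0.04, against -0.12 over all genes. Lmnb1, which encodes a B-type lamin, had 244 CPM in SOX17KO and 256 CPM in Control cells, so the gap of Lmna was not shared by it. Of 16 genes of the insulin-like growth factor axis, 6 were at least 2-fold higher and 0 lower. Irs2, an adaptor of the receptor, had 149 CPM in SOX17KO and 65.9 CPM in Control cells. Igfbp3 had the largest log2 ratio of that list (5.68), from 71 SOX17KO UMIs and 1 Control UMI, and Igf1 had 370 SOX17KO and 14 Control UMIs. Macrophages and fibroblasts are known sources of these factors, and their genes C1qa (92.0 CPM in SOX17KO, 8.21 CPM in Control) and Col3a1 moved with them, a part that was not tested. Over all genes the shares were 10.0% higher and 9.77% lower. Of 10 transporter genes 3 were higher, led by Abcb4. The other family lists were mixed. Of 14 genes of O-glycosylation 1 was higher and 3 were lower, and Gcnt1 had the largest change (log2 ratio -2.29). Of 15 semaphorins, plexins and their co-receptors 3 were higher and 3 lower, with Sema6a at 3.95. At 2 weeks 0 of the 14 lamina genes and 0 of the 14 O-glycosylation genes were past 2-fold. Of 14 semaphorin and plexin genes 3 were higher (Sema6a largest, 5.29), of 10 transporter genes 2 were higher (Abcb4 largest, 1.92), and of 15 genes of the insulin-like growth factor axis 2 were lower. The shares over all genes were then 4.53% higher and 4.56% lower.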

How the data were processed

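The authors deposited filtered gene-by-cell matrices of raw UMI counts, 1 per library, made with Cell Ranger on mm10. The version is 6.0.1 per the submitters' processing notes and 7.0.1 per the file headers, and the settings for introns and strand are not given in the sources used here. From these counts, cells with at least 200 genes and at most 10% mitochondrial UMIs were kept, and the highest-scoring cells of a simulated-doublet score (scikit-learn 1.9.0) were removed at 0.8% per 1000 cells. Classes were gated by marker UMIs. CD8 T cells were divided into cycling cells (Mki67 and Top2a summed, at least 2 UMIs), and Tox-positive (at least 1 UMI) and Tox-negative other cells.

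Each library was assigned its genotype and collection from its title. CPM is the summed count per 1000000 UMIs of the class. Ratios carry exact conditional binomial intervals and shares exact Clopper-Pearson intervals (95%, scipy 1.17.1), which cover counting error only. With 1 library per genotype in a collection no test was made within a collection, and a gene at 0 UMIs was set against a floor of 3 counts. Across collections, counts summed per library and class were tested with edgeR 4.0.16 (quasi-likelihood, TMM, filterByExpr, collection and genotype in the model, R 4.3.3), with p-values adjusted by Benjamini-Hochberg over all genes tested. DESeq2 1.42.0 and limma 3.58.1 (voom) were alternatives. The edgeR step was tested on simulated data. The sources used here do not say whether the collections pool different mice, or that mice or cultures were separate replicates. The p-values therefore measure the spread between these libraries. The collection is the pairing of the libraries, from their labels.

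The members and the gene lists were chosen with earlier results of these data known. The text names all 9 members, their neighbours on chromosome 5, overlapping genes, the list gene with the largest ratio, defining genes of CD8 states, and for each member up to 3 genes with the highest Spearman correlation. Other list genes named (Lmnb1, Irs2, Igf1, C1qa, Col3a1, S100a9 and Jchain) were chosen after their values were seen. Gene models came from GENCODE M21 and promoters from RefSeq (GRCm38.p6). Alternative gates, states, scalings, filters and tools, and each collection left out, were tried.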

Additional observations from a re-analysis of the deposited data

Results flagged for a closer look

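Galnt18 and Filip1 in CD8 T cells had opposite directions in the untimed and 2-week pairs. The log2 ratio of SOX17KO over Control for Galnt18 was -9.11 in the untimed pair and 3.13 at 2 weeks, where 1 SOX17KO cell held all 38 UMIs of that library. That cell also held 36 Tox UMIs, 21 Lmna UMIs and 11 Filip1 UMIs, 19 UMIs of Cd3 genes, 2 of Cd8a, 0 of Cd8b1 and 0 of genes of other lineages. The log2 ratio of Filip1 was -3.13 in the untimed pair and 0.47 at 2 weeks. Each pair holds 1 library per genotype, so the difference between the pairs was not tested.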

How the results depend on the processing

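In the untimed pair the counts of 4 members higher and 5 lower were the same under every alternative run for them, except that 3 were lower in Tox-negative cells alone, where Galnt18 and Tmprss6 had under 20 UMIs. Of the member ratios, 89 in the untimed pair and 81 at 2 weeks stayed within their counting interval, 28 and 30 moved outside it, and 4 past 2-fold changed sign, all of them Galnt18 at 2 weeks (main 3.13), with -0.48 when Cd8b1 was required, -0.49 with a Cd3 and Cd8 minimum of 4 UMIs, -0.29 in cycling cells and -0.074 without the cell with most UMIs of the member in each library, an alternative added after seeing the data. Those 4 values were set against the floor of 3 counts, since the SOX17KO cells held 0 Galnt18 UMIs in each. Counting ratios of any size, 0 of 117 in the untimed pair and 16 of 115 at 2 weeks took the other sign. These came from Galnt18 (4), Glis1, Filip1 and Sema6d (3 each), Tmprss6 (2) and Igf1r (1). At 2 weeks Igf1r ranged from -1.80 to 1.42, Sema6d from -2.35 to 1.31, Glis1 from -1.74 to 2.08 and Filip1 from -0.025 to 0.79. At 2 weeks the number at least 2-fold higher (main 2) was 0 with Cd8b1 required, with a minimum of 4 UMIs, in Tox-negative cells and without the top cells, 1 in cycling cells, with TMM scaling and with per-cell means, 3 with cycling cells left out and 4 in Tox-positive cells. The number at least 2-fold lower (main 0) was 1 without cells holding UMIs of other lineages and with the minimum of 4, 2 with Cd8b1 required and without the top cells, and 3 in cycling cells. The cause was not tested.

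In other classes 0 members were called with collection as the pairing block and 0 with no replicate block. DESeq2 called 1, the fit with no filter on low counts called 6 of 54 pairs, and leaving out 1 collection gave 0 to 1. Over all genes, DESeq2 called 20 of 7945 in regulatory T cells, the class of its 1 call. The fit with no filter called from 78 of 16962 genes in NK cells to 324 of 19493 in conventional CD4 T cells. Leaving out 1 collection gave 0 to 88 genes called per class. Depth limits the 1-week pair most, with 50 SOX17KO and 33 Control CD8 T cells.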

Other observations

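Beyond the members and their relatives, the untimed CD8 T cells differed in genes of T cell states, given here as ratios of single libraries with no test. Over all genes of that pair, 10.0% were at least 2-fold higher and 9.77% at least 2-fold lower in SOX17KO cells. Of 12 inhibitory receptor and exhaustion genes, 7 were at least 2-fold lower in SOX17KO cells and 0 higher, with a median log2 ratio of -1.13, against -0.12 over all genes. Lag3, a receptor that restrains T cells, had 5.23 CPM in SOX17KO and 96.7 CPM in Control cells, whereas Pdcd1, which encodes PD-1, had 237 CPM in SOX17KO and 351 CPM in Control cells (log2 ratio -0.56). Of 12 cytotoxic genes, 3 were higher and 6 lower, and the granzyme genes Gzma and Gzmb had log2 ratios of -4.72 and -2.98. Of 11 cell cycle genes, 10 were lower, and Mki67 had 76.8 CPM in SOX17KO and 154 CPM in Control cells.

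At 2 weeks 4.53% of all genes were at least 2-fold higher and 4.56% at least 2-fold lower in SOX17KO cells. Few of the T cell state genes were past 2-fold there. None of the 12 inhibitory receptor genes and none of the 11 cell cycle genes were, and Lag3 had 118 CPM in SOX17KO and 116 CPM in Control cells. Of 15 NK and innate-like receptor genes, 4 were at least 2-fold higher in SOX17KO cells at 2 weeks and 0 lower, with Klra7 at 54.5 CPM in SOX17KO and 15.3 CPM in Control cells, whereas in the untimed pair 1 was higher and 8 were lower, with Klra7 at a log2 ratio of -2.98.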
